A study of Mus musculus with 8 samples.

Results

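Brown adipose tissue (BAT) of db/db mice held less mRNA of 8 of 10 genes that handle pyruvate, most of them at its entry into mitochondria or its use there. The 10 genes were taken by name from a table of 31053 genes: the pyruvate carrier subunits Mpc1 and Mpc2, the pyruvate dehydrogenase (PDH) genes Pdha1, Pdhb and Dlat, the PDH kinases Pdk1, Pdk2 and Pdk4, lactate dehydrogenase B (Ldhb) and pyruvate carboxylase (Pc, listed as Pcx in the annotation). All 10 had counts and passed the filter on low counts. BAT was profiled by bulk RNA sequencing in 4 wild-type (WT) and 4 db/db male mice, all 8 weeks old, on a normal diet and fasted before harvest, with C57BL6/J given as the strain of every sample. The db/db mice, B6.BKS(D)-Leprdb/J, carry a mutation of the leptin receptor gene Lepr throughout the body, overeat and become obese and diabetic. The sources differ on whether the WT mice came from the same supplier, and if they did not, supplier and genotype cannot be told apart.

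Pyruvate, the end product of glycolysis, crosses the inner mitochondrial membrane through a carrier made of MPC1 and MPC2. The PDH complex then turns it into acetyl-CoA, which feeds the tricarboxylic acid (TCA) cycle and, by way of citrate, the synthesis of fatty acids. PDH kinases phosphorylate the E1 alpha subunit and switch the complex off, PDH phosphatases switch it on again, and pyruvate carboxylase offers the other main entry by making oxaloacetate. Brown fat burns glucose as well as fatty acids, and its kinase PDK4 is known for rising in fasting, when fat is oxidised and glucose is spared.

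The libraries held 2374079 to 2615009 counts in WT and 2382722 to 3240074 in db/db mice, and mitochondrially encoded genes took 30.7% to 37.6% of them. Lepr had 0 counts in all 8 libraries, which allows up to 3 counts in each (counting error only), so it could not be used to check the genotypes. Levels are given as CPM (counts-per-million), relative to a library's sum over the 9264 genes left by the filter, with TMM scaling. The labels name the tissue as BAT but the cell type as a stromal vascular fraction. Adipocyte mRNAs were abundant in every library, with Ucp1 at 1892 to 2754 CPM in WT and 1056 to 2027 in db/db mice and Adipoq at 1245 to 1828 and 1684 to 2112, so the values describe tissue that held adipocytes. The p-values measure the spread between the 4 libraries of a genotype, which the design text calls biological replicates.

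The promoters of Pdha1 and Pdhb are shown because the mRNAs of these partner subunits behaved differently, as the values below give. Each line holds 120 bases of the gene's strand from 5′ to 3′, ending 40 bases before the RefSeq start (build GRCm38.p6), and capitals mark CCAAT boxes (read as ATTGG on the other strand) and GC boxes (GGGCGG). Both genes lie on the minus strand, with the stretches at chrX:160138471-160138590 for Pdha1 and chr14:8173033-8173152 for Pdhb.
Pdha1: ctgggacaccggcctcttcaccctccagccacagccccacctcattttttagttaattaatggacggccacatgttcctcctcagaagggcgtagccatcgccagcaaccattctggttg
Pdhb: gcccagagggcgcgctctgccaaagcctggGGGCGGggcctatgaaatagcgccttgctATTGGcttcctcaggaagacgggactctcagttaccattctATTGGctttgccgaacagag
The Pdhb stretch holds 2 CCAAT boxes and 1 GC box, and the Pdha1 stretch holds neither. In the whole 250 bases before the start, Pdhb had 3 CCAAT boxes and Pdha1 had 0. These motifs were chosen after the sequences were seen, and such a match is a description and not a binding site.

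All 10 genes matched the RefSeq promoter table, with 14 start sites among them. Within 250 bases before the start, a CCAAT box stood in 7 of the 14 promoters and in 33.8% of all 32851, and a GC box in 7 of the 14 and in 32.7% of all. The promoters were rich in G and C, with a median of 61.8% over the 14 windows of 300 bases against 52.7% over all promoters. Neither the ERR element (TCAAGGTCA), the FOXO core (TGTTTAC), the NRF1 core (GCGCATGC) nor the DR1 repeat (AGGTCANAGGTCA), searched on both strands, was found in any of the 14 windows. Among all promoters these letters occurred in 0.423%, 3.65%, 2.71% and 0.0396%, respectively, so their absence from so few windows says nothing about the factors that bind them.

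Of the 10 genes, 8 were lower in db/db BAT, 0 were higher and 2 did not pass the test. The test was edgeR's quasi-likelihood test over all 9264 genes with an adjusted p under 0.05, two-sided, and by the same rule 11.9% of all genes were lower and 27.7% differed in either direction. The median log2 fold change of the 10 genes was -0.82, beside 0.01 over all genes tested. In the same 8 genes every db/db library lay below every WT library, which held for 12.7% of all genes. The 10 genes were chosen with earlier results of these data known. Their shares and median, set beside those of all genes, are therefore a description and no test. The changes are of mRNA in whole tissue, in which fewer cells of a type and less RNA per cell cannot be told apart.

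**Figure D1:**
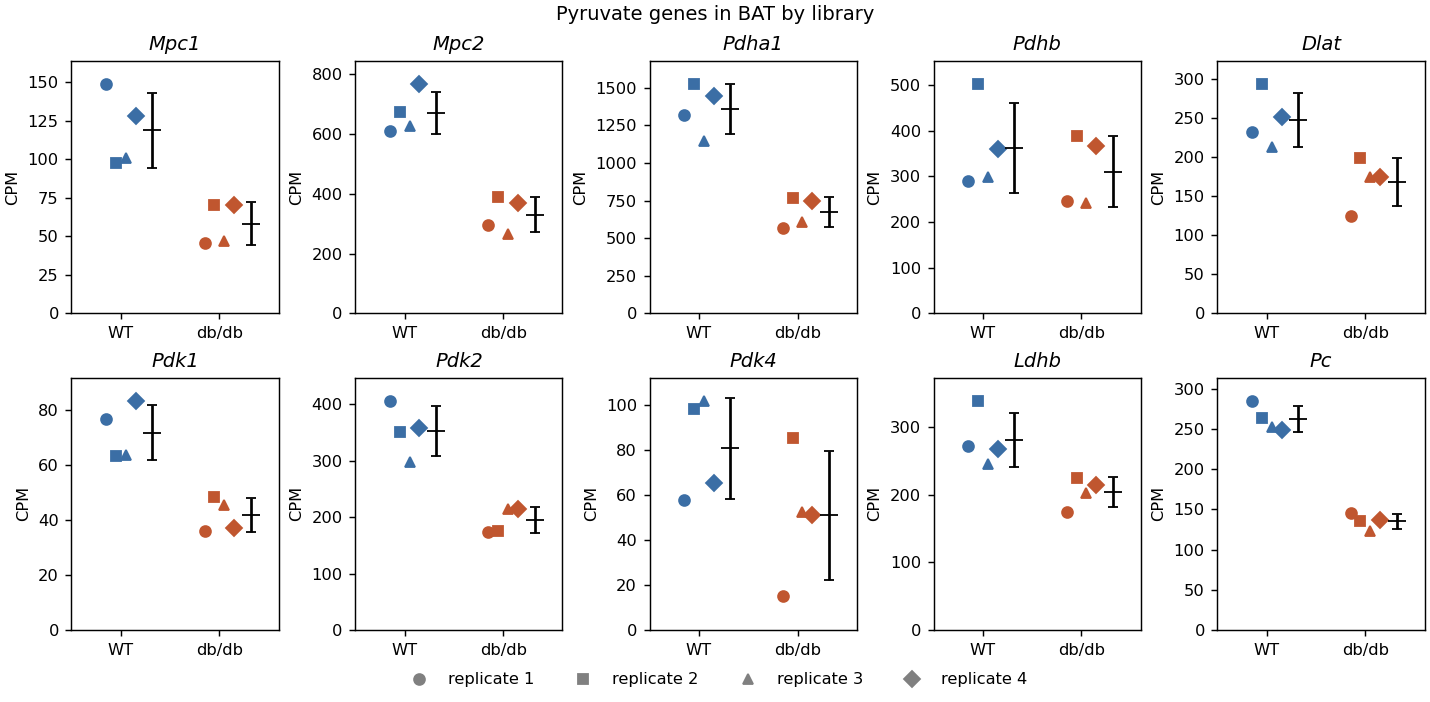
CPM of the 10 pyruvate genes in each of the 8 libraries, with WT in blue, db/db in orange, 1 symbol per replicate number and the mean ± SD (n = 4) in black. Every db/db library sits below every WT library except for Pdhb and Pdk4, where 2 and 3 of the 4 db/db libraries do.

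Both subunits of the mitochondrial pyruvate carrier fell, each to about the same share of its WT level. Mpc2 (chr1:165460637-165481214, plus strand, GRCm38), measured 612, 676, 626 and 768 CPM in WT replicates 1 to 4 and 295, 389, 267 and 370 in db/db replicates 1 to 4. All 4 db/db values were below the lowest WT value, and the means were 671 ± 70.7 and 330 ± 58.8 CPM (SD, n = 4). Its log2 fold change was -1.02 (SE 0.15, 95% interval -1.33 to -0.71, edgeR adjusted p = 5.45e-05), or 49.3% of the WT level.

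Mpc1 (chr17:8282904-8297661, plus strand) measured 149, 97.5, 101 and 128 CPM in WT and 46.0, 70.3, 47.0 and 70.3 in db/db BAT, from 106 to 369 counts per library. The genotypes did not overlap, and WT replicate 1 was the highest of all. Its log2 fold change was -1.02 (SE 0.18, edgeR adjusted p = 3.95e-04), or 49.2% of WT. An exon of Mpc1 overlaps one of 4930506C21Rik on the other strand and the gene has a named pseudogene, Mpc1-ps, neither of which was analysed here, so its counts are less certain than those of Mpc2. The count ratio of Mpc1 to Mpc2 within a library was 0.144 to 0.244 in WT and 0.156 to 0.190 in db/db mice. Its mean log2 change was 0.00 against a spread of 0.25 (pooled SD). The mean shift seen in the balance of the pair was thus smaller than the spread between libraries, and so few libraries set no close bound on it.

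The catalytic subunits of PDH did not move alike. Pdha1, the E1 alpha subunit that the kinases phosphorylate (chrX:160122209-160138413, minus strand), measured 1319, 1525, 1149 and 1446 CPM in WT and 568, 770, 605 and 745 in db/db BAT. The highest db/db library lay well below the lowest WT library. The log2 fold change was -1.02 (SE 0.14, 95% interval -1.32 to -0.71, edgeR adjusted p = 5.25e-05), or 49.4% of WT. An exon of Pdha1 overlaps Map3k15 on the other strand, which had 0 to 2 counts per library, and the related gene Pdha2 had 0 in all of them.

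Pdhb, the E1 beta subunit that pairs with E1 alpha in the same tetramer (chr14:8165996-8173025, minus strand), measured 289, 502, 298 and 360 CPM in WT and 246, 389, 241 and 366 in db/db BAT. The ranges overlapped, since db/db replicates 2 and 4 lay inside the WT range. Its log2 fold change of -0.22 (SE 0.19, 95% interval -0.63 to 0.18, edgeR adjusted p = 0.426) did not pass the test, and its interval does not exclude a fall like that of Dlat. Dlat, the E2 core that passes the acetyl group to coenzyme A (chr9:50634633-50659780, minus strand), measured 232, 293, 213 and 251 CPM in WT and 125, 199, 174 and 174 in db/db BAT. The genotypes were separate but close, the highest db/db library being replicate 2 and the lowest WT library replicate 3. The change was -0.56 (SE 0.15, edgeR adjusted p = 0.0112), or 68.0% of WT.

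The count ratio of Pdha1 to Pdhb, which does not depend on the scaling between libraries, was 4.57, 3.04, 3.85 and 4.02 in WT and 2.31, 1.98, 2.51 and 2.04 in db/db BAT. It was lower in every db/db library than in every WT library, with means of 3.87 ± 0.633 and 2.21 ± 0.246 (SD, n = 4). The mean log2 change was -0.80 against a spread of 0.21, and it stayed between -0.91 and -0.72 when any 1 library was left out. For Dlat to Pdhb the ratio was 0.584 to 0.803 in WT and 0.477 to 0.721 in db/db mice, so the genotypes overlapped. No p-value was computed for the ratios.

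**Figure D2:**
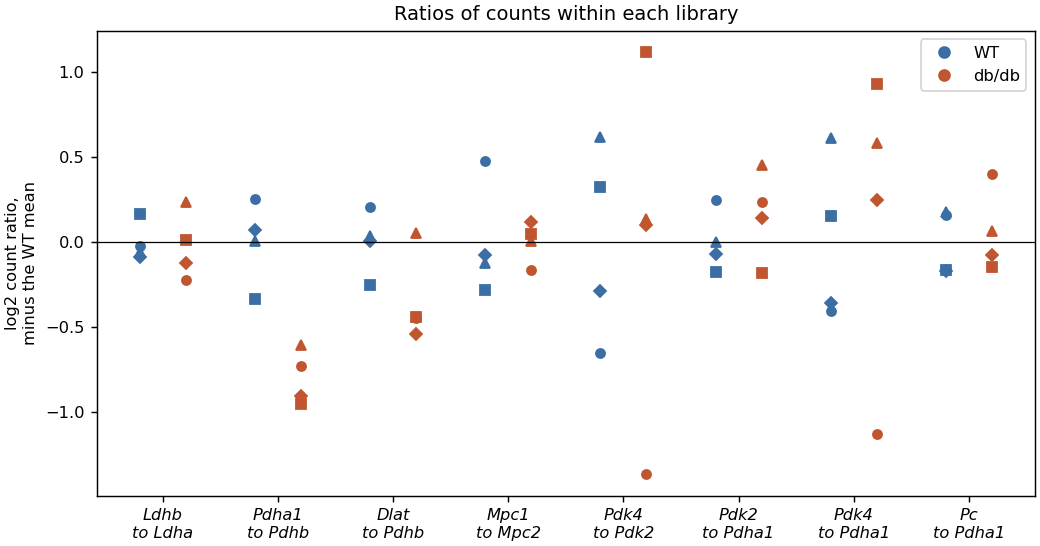
Log2 ratio of the counts of 2 genes within each library, minus the WT mean of that ratio, for 8 pairs, with WT in blue, db/db in orange and symbols for replicates 1 (circle), 2 (square), 3 (triangle) and 4 (diamond). Of the 8 pairs, the genotypes are separate for Pdha1 to Pdhb, at a mean change of -0.80, and overlap for the others.

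Of the kinases that inactivate PDH, Pdk1 and Pdk2 fell and Pdk4 did not pass the test. Pdk2 (chr11:95026258-95041354, minus strand), the isoform with the widest tissue distribution, measured 406, 351, 298 and 357 CPM in WT and 174, 176, 215 and 214 in db/db BAT. All db/db libraries were below all WT libraries, and the change was -0.86 (SE 0.14, edgeR adjusted p = 1.42e-04), or 55.0% of WT. Pdk1 (chr2:71873224-71903858, plus strand), known as a target of hypoxia signalling, measured 76.5, 63.3, 63.5 and 83.2 CPM in WT and 36.1, 48.4, 45.2 and 37.2 in db/db BAT. The 2 genotypes were again separate, with a change of -0.78 (SE 0.16, edgeR adjusted p = 0.00126) and 100 to 196 counts per library.

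Pdk4 (chr6:5483351-5496309, minus strand), the kinase induced by fasting, was the most variable of the 10 genes. It measured 57.9, 98.3, 102 and 65.4 CPM in WT and 15.0, 85.3, 52.7 and 51.3 in db/db BAT. Db/db replicate 1 was the lowest of all 8 libraries, replicate 2 lay inside the WT range, and replicates 3 and 4 were just below it. The log2 fold change was -0.67 (SE 0.33, 95% interval -1.36 to 0.02, edgeR adjusted p = 0.143). Without db/db replicate 2 it was -1.05 (adjusted p = 0.0262) and without db/db replicate 1 it was -0.36, so single libraries decided its value. Pdk4 also passed with a replicate block (-0.81, adjusted p = 0.0173) and without a filter on low counts (-0.71, adjusted p = 3.85e-04). The summed skeletal muscle markers were also highest in db/db replicate 1, at 14020 CPM, the other 3 db/db libraries having 2711 to 6398. In a fit with a muscle score as a covariate the Pdk4 change was 0.19 (adjusted p = 0.870), and in what measure muscle mRNA entered the Pdk4 value was not tested further.

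The ratios of Pdk2 and Pdk4 to their substrate gene Pdha1, and of Pdk4 to Pdk2, shifted by less than the spread between libraries. The count ratio of Pdk2 to Pdha1 was 0.308, 0.230, 0.259 and 0.247 in WT and 0.306, 0.229, 0.355 and 0.286 in db/db BAT, with a mean log2 change of 0.16 against a spread of 0.23. Pdk4 to Pdha1 changed by 0.16 with a spread of 0.72, and Pdk4 to Pdk2 was 0.142 to 0.343 in WT libraries against 0.0865 to 0.485 in db/db libraries. All 3 ratios overlapped between the genotypes, and the spreads of the last 2, 0.72 and 0.83, were about as large as the change seen for Pdha1 to Pdhb.

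Pyruvate carboxylase and lactate dehydrogenase B fell by different amounts. Pc (chr19:4510472-4621752, plus strand), the mitochondrial enzyme that makes oxaloacetate, measured 285, 264, 252 and 248 CPM in WT and 145, 135, 123 and 137 in db/db BAT. Its libraries were the most tightly grouped of the 10 genes, with means of 262 ± 16.6 and 135 ± 9.32 CPM (SD, n = 4). The change was -0.96 (SE 0.12, 95% interval -1.22 to -0.70, edgeR adjusted p = 1.82e-05), or 51.5% of WT. The ratio of Pc to Pdha1, the pair of enzymes that compete for mitochondrial pyruvate, was 0.172 to 0.219 in WT and 0.175 to 0.256 in db/db mice, a mean log2 change of 0.06 against a spread of 0.22.

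Ldhb, the heart-type subunit of lactate dehydrogenase (chr6:142490249-142507957, minus strand), measured 272, 339, 246 and 267 CPM in WT and 174, 225, 203 and 214 in db/db BAT. The genotypes were separate, and the change of -0.46 (SE 0.14, edgeR adjusted p = 0.0173) was the smallest among the genes that passed. Without WT replicate 2, its highest library, the change was -0.37 (adjusted p = 0.0739) and the call was lost. Ldha, the muscle-type subunit, fell by a like amount, and the ratio of Ldhb to Ldha was 0.389 to 0.464 in WT and 0.353 to 0.487 in db/db mice, a mean log2 change of -0.02 against a spread of 0.16.

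Of 42 other genes of the pathway, 31 passed the filter on low counts, of which 9 were lower, 0 were higher and 22 did not pass the test. Their median log2 fold change was -0.33. The count of 9 rests on single WT libraries: without WT replicate 2 it was 5, and without WT replicate 3 it was 14, of which 1, Gpt2, an alanine aminotransferase, was higher (0.84, adjusted p = 0.0453). Gpt2 also passed as higher by limma-voom (0.75, adjusted p = 0.0497), and Me1, cytosolic malic enzyme, passed as higher without db/db replicate 3 (0.71, adjusted p = 0.00442) and without a filter on low counts (0.44, adjusted p = 0.0280).

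Among the regulators and other subunits of PDH, Pdp2 moved most. Pdp2, a phosphatase that reactivates the complex, measured 89.0, 97.9, 66.5 and 117 CPM in WT and 22.3, 29.0, 29.3 and 33.9 in db/db BAT, a change of -1.70 (SE 0.19, edgeR adjusted p = 3.52e-06). All db/db values were below all WT values. The other phosphatase gene, Pdp1, was counted little, at 4.51 to 7.64 CPM in WT and 6.04 to 10.2 in db/db mice, and did not pass (adjusted p = 0.488). Pdhx, the E3-binding subunit, fell by 0.49 on the log2 scale (adjusted p = 0.0151, or 0.0621 without WT replicate 2), while Dld, the E3 subunit that the other 2-oxoacid dehydrogenases share, had a change of -0.41 (adjusted p = 0.0610). Dld lay near the threshold and passed by DESeq2 (adjusted p = 0.0423), with library totals alone (0.0285), without a filter (0.0197), with a replicate block (0.0264) and without WT replicate 1 or 3 or db/db replicate 2 (0.0435, 0.0452 and 0.0407). Of the 7 genes for lipoate and thiamine cofactors, 3 were tested and 0 passed, with a median log2 fold change of -0.31.

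On the lactate side 5 of 7 genes were tested and 1 fell. Ldha measured 670, 730, 620 and 688 CPM in WT and 493, 540, 416 and 564 in db/db BAT, a change of -0.43 (SE 0.13, edgeR adjusted p = 0.0213), with no overlap. The call was lost without WT replicate 2 or 4 or db/db replicate 3 (adjusted p = 0.0624, 0.0520 and 0.0702). Ldhd, the D-lactate dehydrogenase, lay near the threshold at -0.41 (adjusted p = 0.0531), with every db/db library below every WT library. It passed by DESeq2 (adjusted p = 0.0492), limma-voom (0.0453), DESeq2 size factors (0.0477), upper quartile scaling (0.0439), library totals alone (0.0308), with nuclear genes only (0.0475), without a filter (0.0436) and without db/db replicate 2 (0.0422). An exon of Ldhd overlaps Znrf1 on the other strand. Ldha has 2 named pseudogenes that could share its reads.

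Of 10 enzymes that make or use pyruvate or its neighbours, 8 were tested and 2 fell. Pck1, the cytosolic enzyme that makes phosphoenolpyruvate for glyceroneogenesis and the most counted of the list, measured 1745, 3078, 4109 and 3786 CPM in WT and 1253, 2495, 1822 and 1579 in db/db BAT. The ranges overlapped because WT replicate 1 was low, and the change was -0.83 (adjusted p = 0.0132). Me3, mitochondrial malic enzyme, fell by 0.63 on the log2 scale (adjusted p = 0.0242), a call that was lost without WT replicate 1 or 2 or db/db replicate 1 or 2 (adjusted p = 0.0676, 0.0602, 0.0746 and 0.0530). This list's median was 0.31, the one positive median among the 7 pathway lists.

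Of 3 genes of citrate handling, the step after acetyl-CoA, 1 fell. Slc25a1, which moves citrate out of mitochondria for lipid synthesis, measured 330, 405, 376 and 360 CPM in WT and 142, 173, 72.7 and 148 in db/db BAT, a change of -1.45 (SE 0.20, edgeR adjusted p = 2.90e-05). The genotypes were far apart, and db/db replicate 3 was the lowest. Citrate synthase, Cs, was the most counted of the list, with 696 to 856 CPM in WT and 460 to 841 in db/db mice, and its change of -0.16 did not pass (adjusted p = 0.514). Acly, which cleaves exported citrate to acetyl-CoA, had a change of -0.45 (adjusted p = 0.114) and passed as lower with a replicate block (0.0244), without a filter on low counts (0.00905) and without WT replicate 3 (0.0475).

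Of 9 genes of the sister 2-oxoacid dehydrogenase complexes, built like PDH, 7 were tested and 3 fell. Dbt, the E2 core of the branched-chain complex, measured 136, 143, 139 and 145 CPM in WT and 68.3, 93.5, 82.9 and 78.5 in db/db BAT, a change of -0.80 (SE 0.13, edgeR adjusted p = 2.07e-04). Bckdha, the E1 alpha subunit of that complex, fell by 0.77 on the log2 scale (adjusted p = 7.36e-04), and its partner Bckdhb had a change of -0.29 (adjusted p = 0.151). Dlst, the E2 core of the 2-oxoglutarate complex, fell by 0.42 (adjusted p = 0.0336). The Dlst call was lost without WT replicate 2 or 4 or db/db replicate 1 (adjusted p = 0.105, 0.0799 and 0.0716) and with at least 10 counts required in every library (adjusted p = 0.0527). Ogdh, the E1 subunit and the most counted gene of the list, had a change of -0.13 (adjusted p = 0.589).

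The lists for the steps before and after PDH had smaller median changes than the 10 genes. Both the 10 genes and these lists were chosen with earlier results of these data known, so the comparison is a description. Of 13 TCA cycle enzymes 3 were lower and 0 higher, with a median of -0.25, and of 45 nuclear genes of respiratory chain subunits 21 were lower and 2 higher, with a median of -0.38. Of 15 tested genes of glucose uptake and glycolysis 4 were lower and 3 higher, with a median of -0.24. Relative to the mean log2 CPM of the 45 respiratory chain genes in the same library, Mpc2 changed by -0.75, Mpc1 by -0.74, Pdha1 by -0.73, Pc by -0.67, Pdk2 by -0.57 and Pdk1 by -0.48, and in these 6 the genotypes stayed apart. Pdhb changed by 0.07, Ldhb by -0.17, Dlat by -0.28 and Pdk4 by -0.56 on that scale, with overlap. Relative to the mean of the 13 TCA cycle enzymes, the genotypes stayed apart for 3 genes, Mpc1 (-0.70), Mpc2 (-0.71) and Pdha1 (-0.70), and overlapped for the other 7, Pdk1, Pdk2 and Pc among them. These are descriptions of the libraries, with no test. How many of all genes would stay apart on these scales was not computed.

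**Figure D3:**
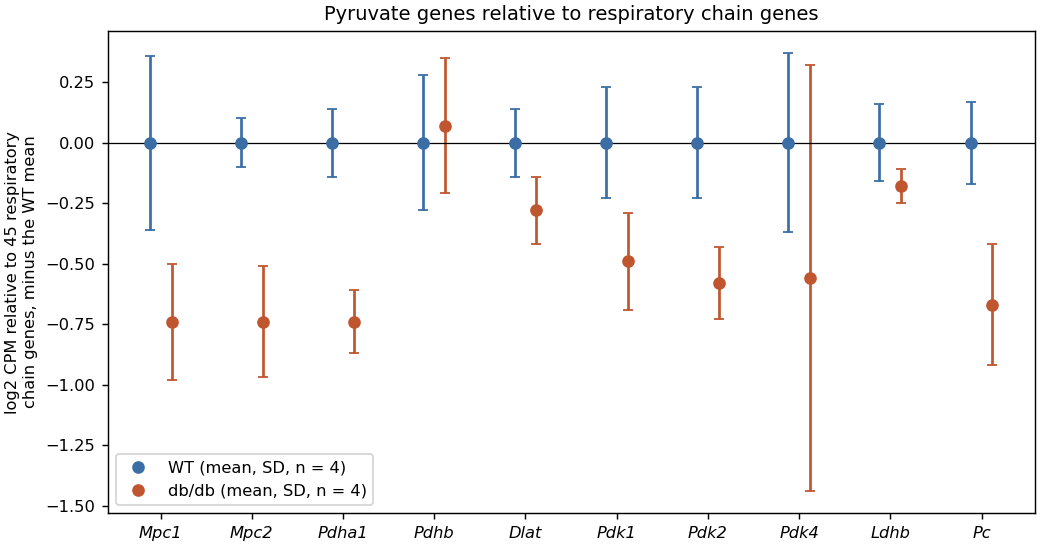
Log2 CPM of each of the 10 genes minus the mean log2 CPM of 45 nuclear respiratory chain genes in the same library, set to 0 at the WT mean of each gene, as mean ± SD over 4 WT (blue) and 4 db/db (orange) libraries. Mpc1, Mpc2, Pdha1, Pdk1, Pdk2 and Pc lie lower in db/db BAT by 0.48 to 0.75, and Pdhb differs by 0.07, whereas relative to 13 TCA cycle enzymes the genotypes stay apart for 3 of the 10 genes (not drawn).

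Markers of other cell types moved with the genotype too. Of 25 skeletal muscle genes 24 were higher in db/db BAT, the list summing to 560 to 2030 CPM in WT and 2711 to 14020 in db/db mice. Macrophage genes were higher for 16 of 17 tested (328 to 493 against 1452 to 2385 CPM), fibroblast and progenitor genes for 10 of 10 (1266 to 2000 against 3133 to 5233 CPM) and white adipocyte genes for 5 of 7 tested (58.7 to 129 against 1833 to 2873 CPM). Brown adipocyte genes were lower for 7 of 10 tested, summing to 9069 to 10747 CPM in WT and 3826 to 6879 in db/db mice. Endothelial genes were lower for 3 of 10, genes of adipocytes of any depot higher for 2 and lower for 2 of 8, and red blood cell genes higher for 1 of 5. Over all 9264 genes tested, 1466 were higher and 1102 lower. No muscle, macrophage or brown adipocyte marker was at 0 in every library.

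**Figure D4:**
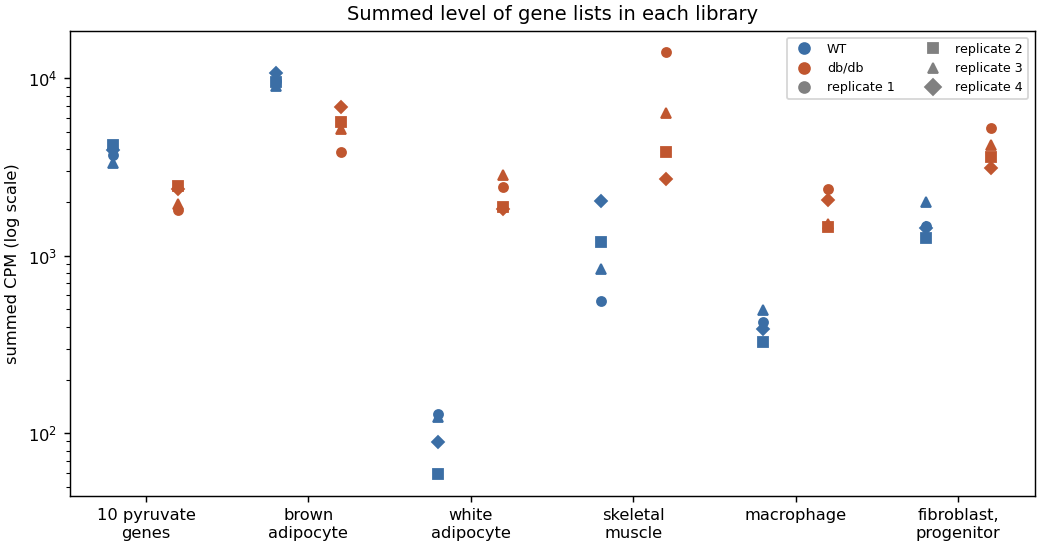
Summed CPM (log scale) of the 10 pyruvate genes and of 5 marker lists in each library, with WT in blue, db/db in orange and 1 symbol per replicate number. The pyruvate and brown adipocyte sums are lower in all 4 db/db libraries and the other 4 sums are higher in all of them, muscle reaching 14020 CPM in db/db replicate 1.

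Taken relative to the mean log2 CPM of the 10 tested brown adipocyte genes, the differences of Pdha1 and Mpc1 narrowed to -0.41 each with the genotypes still apart, and the other 8 genes overlapped. The sign turned for Pdhb (0.39), Ldhb (0.15) and Dlat (0.04), and Mpc2 had -0.42, Pc -0.35, Pdk2 -0.25, Pdk4 -0.24 and Pdk1 -0.16. The share of all genes that would stay apart on that scale was not computed. Without db/db replicate 1, the library with the most muscle mRNA, 8 of the 10 genes were still lower. With a muscle score as a covariate, Mpc2, Pdha1 and Pc still passed (adjusted p = 0.0169, 0.0253 and 0.00979), and Mpc1, Dlat, Pdk1, Pdk2 and Ldhb did not. Pdk1 and Pdk2 had log2 fold changes of -0.77 and -0.72 in that fit (adjusted p = 0.104 and 0.0608), close to those without the score but with larger errors (SE 0.27 and 0.23), while Mpc1 had -0.58, Dlat -0.38 and Ldhb -0.33 (adjusted p = 0.216, 0.433 and 0.465). That score was -1.29 to -0.09 in WT and -0.04 to 1.61 in db/db libraries, without overlap, so muscle mRNA and genotype cannot be told apart in that fit.

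For each of the 8 genes that fell, the most similar profiles over the 8 libraries were found among 6698 genes by the root mean square (RMS) difference of log2 CPM, each gene centred on its own mean. Mpc2 and Pdha1 stood in each other's first pair, at 0.109, together with the long non-coding RNA Lncbate1 at 0.118 and 0.0924. Uqcrc2, a core protein of complex III, was close to both Dlat (0.0931) and Ldhb (0.0767). Hspa9, the mitochondrial HSP70, was the other neighbour of Dlat at 0.0945, and Ivd, a leucine breakdown enzyme, that of Ldhb at 0.0705. Pdk2 was nearest to Inca1 (0.0512) and Sgta (0.0718), Pdk1 to Abcd3 (0.116) and Pgls (0.118), Pc to Sbno1 (0.0891) and Lrrc58 (0.120), and Mpc1 to Prelid3b (0.181) and Gm37494 (0.182). Likeness was ranked over 8 libraries that differ in genotype, which any gene of similar fold change shares.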

How the data were processed

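The deposited table of raw counts per gene was used. By the study's methods the authors trimmed reads with bbduk, aligned them to mm10 with STAR and counted them with HTSeq-count, while the submitters' processing notes name Trimmomatic, HISAT2 and DESeq2 with GRCm38 and mm10. Strand use in counting is not given in the sources used here. Of 31053 Ensembl identifiers, 30934 matched GENCODE M21. A deposited table of normalized values and a sample sheet were not used.

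Genes were filtered with filterByExpr (minimum count 10), scaled by TMM and tested with edgeR 4.0.16 (quasi-likelihood, Benjamini-Hochberg over all genes tested) in R 4.3.3. Alternatives were DESeq2 1.42.0, limma-voom (limma 3.58.1), other scalings and filters, a muscle score, a replicate block and leaving out each library. The muscle score is the mean over the muscle markers of log2 CPM scaled to mean 0 and SD 1. Log2 CPM used a prior count of 2. The 10 genes, lists and motifs were chosen with earlier results of these data known. Named were all 10 genes, each pathway gene with an adjusted p under 0.05, the most counted gene of each pathway list and, for each of the 10 that passed, the 2 genes of nearest profile with a mean of at least 10 CPM. Some listed genes are counted but not reported here by name. Pdp1, Dld, Ldhd, Acly, Bckdhb, Gpt2, Me1, Slc16a3, Pdk3 and Lipt2 were named after their values were seen.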

Additional observations from a re-analysis of the deposited data

Results flagged for a closer look

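A library standing far from the other 3 of its genotype was looked for in 38 sets of 4 libraries, by Dixon's test on CPM, for the 10 genes and the 9 pathway genes that passed. It marked 2 sets, where chance alone marks about 1 in 20 sets, or 1.90 of 38. Dlst in db/db replicate 1 measured 258 CPM, beside 358 to 363 in the other db/db libraries. Bckdha in WT replicate 3 measured 143 CPM, beside 178 to 180 in the other WT libraries. None of the 10 pyruvate genes was marked, Pdk4 in db/db replicate 1 included.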

How the results depend on the processing

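Of 100 comparisons of a gene's log2 fold change with another processing of all 8 libraries, 92 kept their direction and their side of the threshold. With the muscle score as a covariate, calls fell from 2568 to 656 over all genes, from 8 to 3 of the 10 genes and from 9 to 2 of the pathway genes, and the share of calls that were lower went from 42.9% to 27.0%. The pathway genes that no longer passed had -0.84 (Pck1), -0.70 (Dbt), -0.59 (Bckdha), -0.41 (Pdhx), -0.33 (Ldha), -0.30 (Dlst) and -0.24 (Me3). In that fit Pdk4 changed sign, to 0.19 (edgeR adjusted p = 0.870). Without a filter on low counts, 14 pathway genes passed, and Pdk4 passed at -0.71 (adjusted p = 3.85e-04). The cause was not tested. Leaving out 1 library gave 2236 to 2483 calls over all genes, 7 to 9 of the 10 genes and 5 to 14 pathway genes. Mpc1, Mpc2, Pdha1, Dlat, Pdk1, Pdk2 and Pc passed without any 1 library, the largest adjusted p being 0.0474 for Dlat. Same-numbered libraries did not deviate together over all genes (correlations -0.0781 to 0.049). A pairing that touches few genes would not show in these correlations. With a replicate block 2557 genes and 9 of the 10 passed, Pdk4 among them at -0.81 (adjusted p = 0.0173). At 2374079 to 3240074 counts per library, 11 of the 42 pathway genes were left out by the filter; without it Slc16a3, a lactate exporter, passed as higher (adjusted p = 0.0425, at 0 to 1.69 CPM in WT and 1.27 to 6.92 in db/db mice), and Pdk3 and Lipt2 did not pass (0.487 and 0.335).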

Other observations

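Pdk4 is a known target of fasting signals and of the PPAR receptors, and 12 of 15 other genes of that kind were tested. Of these, 4 were higher, 4 were lower and 4 did not pass, with a median log2 fold change of -0.07, so the list did not move in 1 direction. The genes named next were chosen after their values were seen. Cpt1a, the liver-type gate of fatty acid entry into mitochondria, rose by 1.12 on the log2 scale (edgeR adjusted p = 0.0104). Plin5, which ties lipid droplets to mitochondria, fell by 0.83 (adjusted p = 5.93e-04) and Ucp3 by 1.06 (adjusted p = 0.0126).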
